A study of Anser cygnoides with 9 samples.

Results

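Follistatin (FST), bone morphogenetic protein 4 (BMP4) and the helix-loop-helix inhibitor ID4 are the 3 genes described here, chosen by name as the activin and BMP pathway genes of interest in the follicle. They are 3 of the 1371 genes in the deposited expression table and 3 of the 832 genes whose levels were high enough to test. The samples were 9 RNA-seq libraries of cultured ovarian granulosa cells from Sichuan white geese (Anser cygnoides) aged 40 weeks, in 3 groups of 3 libraries. One group received a GnRH agonist (alarelin acetate), one a GnRH antagonist (cetrorelix acetate), and the blank group was the control. The series describes preovulatory and pre-hierarchical follicles of 4 to 12 mm, taken 2 hours before laying, and the tissue label names small and large yellow follicles, so the cultures came from follicles of more than 1 stage. No source used here gives the dose or the exposure time of either peptide. None says whether replicate libraries stand for separate geese or dishes either, so each p-value reflects the spread among libraries alone, part of which may be technical.

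Activin, a dimer made by granulosa cells, signals through serine/threonine kinase receptors and SMAD transcription factors. Follistatin is a secreted glycoprotein that binds activin almost irreversibly and keeps it from its receptors, and it also binds some BMPs. BMP4 is a secreted ligand of the same superfamily that signals through BMP receptors and another branch of SMADs. The ID genes are well-known targets of that branch. ID proteins lack a DNA-binding region and pair with helix-loop-helix transcription factors, which keeps those factors off DNA. In the follicle these signals bear on whether granulosa cells proliferate or differentiate, and GnRH receptors on granulosa cells are a further input.

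Levels are in TPM, a share of all transcripts corrected for transcript length, so levels of different genes can be compared. The listed genes made up 2.88% to 3.26% of the TPM of a whole transcriptome, and read depth is unknown. On the first principal component of the tested genes, which held 45.1% of the variance, the antagonist libraries scored 4.14 to 6.90, the agonist libraries -5.98 to -2.62, and the blank libraries -3.66 to 2.57, with blank replicate 1 at 2.57 and the other 2 below 0. The description labels of the libraries carry 3 codes in the form of Illumina flow cell names, which are called flow cell codes here. The labels do not say what the codes are. The agonist libraries 1, 2 and 3 carried the codes H75K3DMXX, H77KGDMXX and H773TDMXX. Of the antagonist libraries, 1 and 3 carried H77KGDMXX and 2 carried H75K3DMXX, and of the blank libraries, 1 carried H77KGDMXX while 2 and 3 carried H773TDMXX. Of 25 granulosa markers looked for, only FST and HSD17B1, a steroid dehydrogenase, were in the table, and HSD17B1 was at 0 to 1.09 TPM, so the labelled cell type could not be checked beyond the level of FST. Of the markers of other cells, TCF21 of the theca list was at 0 to 0.776 TPM, CD4 of the blood and immune list at 0 to 0.103 TPM and, of the endothelial list, CDH5 at 0 to 0.121 TPM and ENG at 0.619 to 1.63 TPM. The endothelial pair summed to 0.640 to 1.25 TPM in the agonist, 1.16 to 1.70 TPM in the antagonist and 1.40 to 1.62 TPM in the blank libraries. ZAR1 of the oocyte list was at 0.164 to 0.855, 0.545 to 1.54 and 0.639 to 1.72 TPM in the same order. The endothelial sum, mostly ENG, and ZAR1 were thus at their lowest in agonist libraries, as FST was. CDH5 means, at 0.061, 0.053 and 0.028 TPM in the same order, and CD4 means, at 0.034, 0.019 and 0.017 TPM, were highest there, with overlapping groups. CD4 was at 0 in 6 of the 9 libraries, so its means give no order of the groups. HSD17B1 means, at 0.446, 0.243 and 0.706 TPM, and TCF21 means, at 0.433, 0.260 and 0.467 TPM, were lowest with the antagonist, as ID4 was, with overlapping groups. The part of these markers in the results was not tested.

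FST had the highest level of the 3 genes. Its mean over the 9 libraries was 48.5 ± 4.9 TPM (SD, n = 9), above 93.7% of the listed genes. BMP4 followed at 33.7 ± 4.0 TPM (SD, n = 9), above 91.6% of the listed genes. ID4 had a mean of 8.56 ± 2.6 TPM (SD, n = 9), above 75.6% of them. The 3 genes kept this order in each of the 9 libraries. They differed in how much they varied: the highest library was 1.35 times the lowest for FST, 1.48 times for BMP4 and 2.09 times for ID4.

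**Figure D1:**
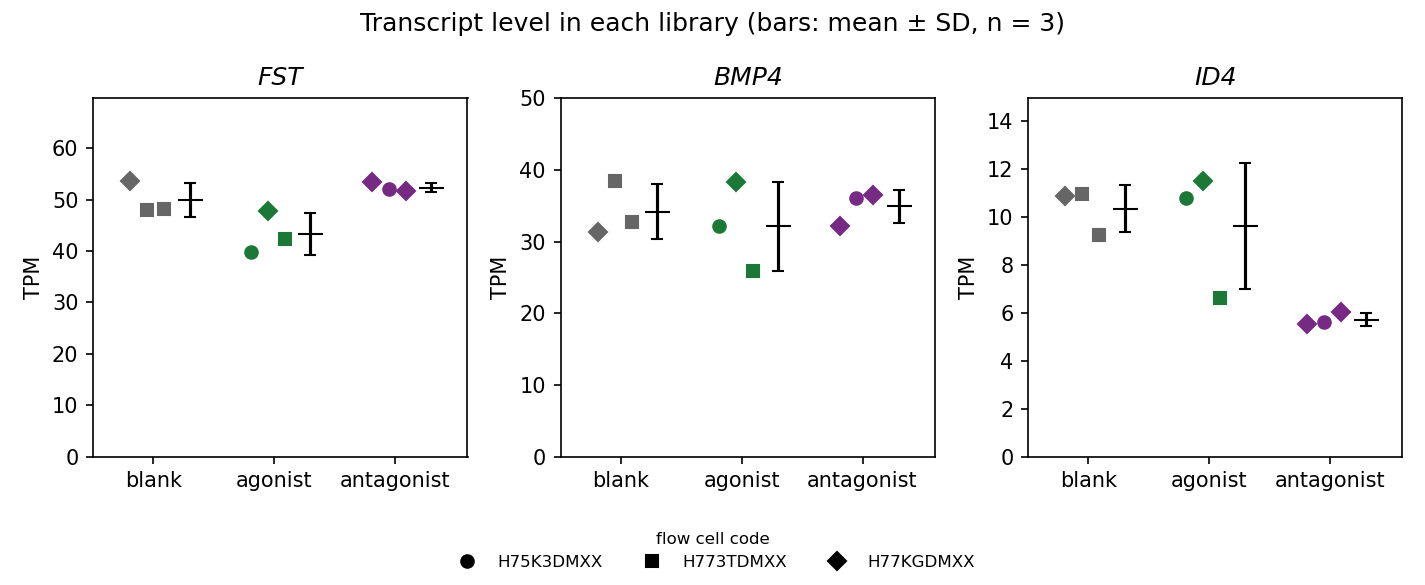
TPM of FST, BMP4 and ID4 (vertical axes, from 0) in each of the 9 libraries, by group, with the mean and SD of each group beside its points and the marker shape giving the flow cell code. The 3 antagonist libraries of ID4 sit at 5.52 to 6.01 TPM, below every other library, while the BMP4 groups overlap.

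ID4, the most variable of the 3, was low in antagonist-treated cells. The antagonist libraries had 5.52, 5.60 and 6.01 TPM for replicates 1, 2 and 3. The blank libraries had 10.9, 11.0 and 9.23 TPM, and the agonist libraries 10.8, 11.5 and 6.63 TPM. All 3 antagonist libraries lay below the other 6, and agonist replicate 3 lay nearer to them than to its own group. Of all tested genes, 48% did not overlap between agonist and antagonist libraries and 33.9% between antagonist and blank libraries. The number whose antagonist libraries parted from both other groups was not counted. As group means, ID4 was at 10.3 ± 0.97 TPM in blank, 9.64 ± 2.6 TPM in agonist-treated and 5.71 ± 0.27 TPM in antagonist-treated cells (SD, n = 3 each). The antagonist mean was 55.2% of the blank mean, and the agonist mean 93.1% of it. In such bulk samples, fewer cells that express a gene and less of its RNA per cell cannot be told apart.

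Against blank, ID4 fell with the antagonist by 0.76 ± 0.17 on the log2 scale of TPM + 1 (SE, limma, adjusted p = 0.0327), with a 95% interval from -1.12 to -0.39. A pseudocount of 1 TPM understates changes of genes at such levels. It was 1 of 7 genes lower with the antagonist, or 0.841% of the 832 tested, where 10.2% were higher and 11.1% passed in all, and it had the second lowest fold change of all tested genes. The groups did not overlap, which was also so for 33.9% of all tested genes. The count of lower genes depended on the processing. The higher and lower genes were 62 and 14 after upper quartile scaling and 30 and 11 after quantile normalization. They were 42 and 24 after median of ratios scaling and 293 and 55 with library weights. With the flow cell code in the model, the fold change was -1.02 and the call was lost (limma, adjusted p = 0.0898), as were all calls of this comparison. The unadjusted p of ID4 did not rise, at 0.00039 with the code and 0.00094 without it (limma). Within H77KGDMXX, the only flow cell code with both groups, the antagonist libraries averaged 5.76 TPM and the blank library had 10.9 TPM, a log2 difference of -0.81 against a median of 0.04 over all genes. The call was also lost without any one of antagonist replicates 1, 2 and 3 or blank replicates 2 and 3 (limma, adjusted p = 0.0653 to 0.150), with fold changes from -0.83 to -0.72 over all fits without 1 library, and without a filter on low values (limma, adjusted p = 0.0681).

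Set directly against each other, the agonist and antagonist groups asked whether the 2 peptides gave different levels. ID4 was higher with the agonist by 0.63 ± 0.17 on the log2 scale (SE, limma, adjusted p = 0.0233), with a 95% interval from 0.27 to 1.00. It was 1 of 14 genes higher with the agonist, 1.68% of those tested, and had the second highest fold change of all 832 genes. The median of all genes in this comparison was -0.21, so ID4 stood 0.84 above it. The groups did not overlap, as for 48% of all tested genes. The count of genes higher with the agonist also depended on scaling. The higher and lower genes were 35 and 66 after upper quartile scaling, 25 and 27 after quantile normalization and 52 and 56 after median of ratios scaling. In the 2 flow cell codes that held both groups the difference was 0.84 in H75K3DMXX, with 1 library each, and 0.89 in H77KGDMXX, with 1 agonist and 2 antagonist libraries. Neither code held agonist replicate 3, the agonist library with the lowest ID4 level. Without that library alone, the fold change was 0.86. With the flow cell code in the model the call was kept (log2 fold change 0.76, limma, adjusted p = 0.0273). It was lost when agonist replicate 1 (log2 fold change 0.54) or any one antagonist library was left out (0.61, 0.62 and 0.66 without replicates 1, 2 and 3; limma, adjusted p = 0.0520 to 0.0926) and without a filter on low values (limma, adjusted p = 0.0591).

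Between agonist and blank cells ID4 did not pass. On the log2 scale they differed by -0.12 ± 0.17 (SE, limma, adjusted p = 0.813), with a 95% interval from -0.49 to 0.24. Agonist replicate 3 moved this value: without it, the fold change was 0.10. Within H773TDMXX, which holds that library, ID4 had 6.63 TPM in the agonist library and a mean of 10.1 TPM in the 2 blank libraries. Within H77KGDMXX the agonist library had 11.5 TPM and the blank one 10.9 TPM. The 2 flow cell codes thus differed in sign, at -0.54 and 0.08. Over the 3 groups in 1 test, ID4 differed (limma moderated F = 12.1, adjusted p = 0.0273), as did 15.6% of all tested genes. The F call was lost with the flow cell code in the model (limma, adjusted p = 0.0513). The unadjusted p of the F-test was 0.00085 with the code and 0.002 without it (limma). The F call was also lost without a filter on low values (limma, adjusted p = 0.0741). It was lost when agonist replicate 1, blank replicate 2 or any one antagonist library was left out (limma, adjusted p = 0.0593 to 0.106).

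FST, the activin-binding protein, showed smaller differences. The agonist libraries had 39.8, 47.8 and 42.2 TPM for replicates 1, 2 and 3. The antagonist libraries had 53.4, 52.1 and 51.7 TPM, and the blank libraries 53.7, 48.0 and 48.1 TPM. Each agonist library was below each of the other 6, though agonist replicate 2 at 47.8 TPM was only just below blank replicate 2 at 48.0 TPM. Of all tested genes, 48% did not overlap between agonist and antagonist libraries, and 11.9% between agonist and blank libraries. The group means were 43.3 ± 4.1, 52.4 ± 0.89 and 49.9 ± 3.2 TPM for agonist, antagonist and blank (SD, n = 3 each).

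FST was lower with the agonist than with the antagonist by a narrow margin, at a log2 fold change of -0.27 ± 0.09 (SE, limma, adjusted p = 0.0467), with a 95% interval from -0.47 to -0.08. That mean was 82.6% of the antagonist mean. Here 25.6% of the tested genes passed in either direction and 23.9% were lower with the agonist, and FST lay only 0.07 below the median of all genes. After median of ratios scaling, which sets that median near 0, its fold change was -0.0038 (limma, adjusted p = 0.975), and after upper quartile scaling -0.06 (limma, adjusted p = 0.528). The call held in 3 of 13 other ways of analysis and in 2 of 9 fits without 1 library, those without agonist replicate 2 or blank replicate 1 (log2 fold changes -0.35 and -0.27). In the other 7 fits the adjusted p was 0.0637 to 0.168 (limma). With the flow cell code in the model the fold change was -0.23 (limma, adjusted p = 0.0811), and within H75K3DMXX and H77KGDMXX it was -0.38 and -0.13, where the medians of all genes were -0.23 and -0.15.

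Against blank, FST was at a log2 fold change of -0.20 ± 0.09 with the agonist (SE, limma, adjusted p = 0.375) and 0.07 ± 0.09 with the antagonist (SE, limma, adjusted p = 0.636). The 95% interval before adjustment ran from -0.40 to -0.0069 for the agonist and from -0.13 to 0.27 for the antagonist. The agonist and blank libraries did not overlap, as for 11.9% of tested genes. In that comparison 0 of 832 genes passed in limma (0%) and 102 had an unadjusted p under 0.05, and FST was one of those 102. Within H77KGDMXX and H773TDMXX, the agonist libraries were below the blank libraries by 0.16 and 0.18 on the log2 scale. The medians of all genes there were -0.10 and -0.03. Over all libraries, the agonist fold change of FST against blank was -0.06 after upper quartile scaling (limma, adjusted p = 0.781). After median of ratios scaling it was -0.09 (limma, adjusted p = 0.686), and after scaling to a common sum -0.098 (limma, adjusted p = 0.871). Over the 3 groups FST did not pass (limma moderated F = 5.09, adjusted p = 0.0963), but it did with library weights (limma, adjusted p = 0.0167) and without agonist replicate 2 (limma, adjusted p = 0.0264).

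BMP4, the ligand of the 3, gave overlapping values in all groups. The agonist libraries had 32.1, 38.3 and 25.9 TPM, the antagonist libraries 32.2, 36.0 and 36.5 TPM, and the blank libraries 31.3, 38.5 and 32.7 TPM. The agonist group held both the lowest value and one just below the highest. Its means were 32.1 ± 6.2, 34.9 ± 2.4 and 34.2 ± 3.8 TPM for agonist, antagonist and blank (SD, n = 3 each). In log2 units agonist differed from antagonist by -0.13 (limma, adjusted p = 0.457), antagonist from blank by 0.03 (limma, adjusted p = 0.904) and agonist from blank by -0.10 (limma, adjusted p = 0.813), with an SE of 0.14 each. The 95% intervals ran from -0.43 to 0.17, from -0.27 to 0.33 and from -0.40 to 0.20 before adjustment. Without agonist replicate 3, the lowest library, the fold change against the antagonist was 0.0093 and against blank 0.04. Within flow cell codes the agonist and antagonist libraries differed by -0.16 in H75K3DMXX and 0.15 in H77KGDMXX, and the agonist and blank libraries by 0.28 in H77KGDMXX and -0.44 in H773TDMXX. The F-test over the 3 groups did not pass either (limma, adjusted p = 0.688).

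**Figure D2:**
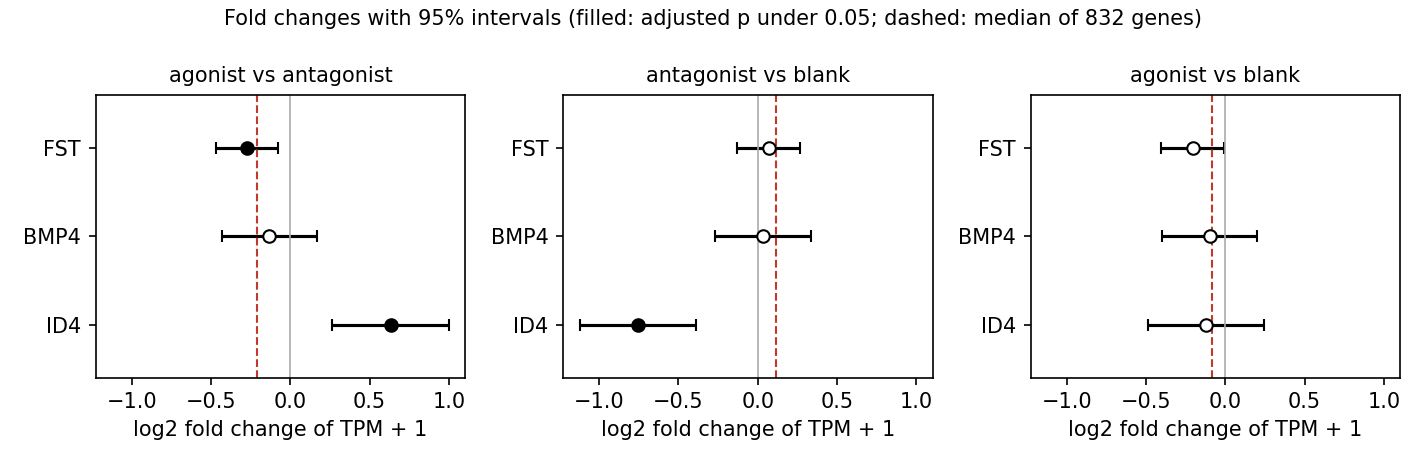
Log2 fold change of TPM + 1 (horizontal axes) of FST, BMP4 and ID4 in the 3 comparisons, with 95% intervals before adjustment, filled where the adjusted p was under 0.05 and with the median of all 832 tested genes as a dashed line. ID4 lies on the other side of 0 from the median where the antagonist is compared, at 0.63 against a median of -0.21 and at -0.76 against 0.12.

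The antagonist group takes part in both comparisons in which ID4 passed, so these share 3 libraries and are not separate evidence.

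Ratios of 2 of these transcripts within a library do not depend on how libraries are scaled to each other, and they show only unequal change. The ID4 to BMP4 ratio was 0.171, 0.156 and 0.165 in the antagonist libraries. It was 0.347, 0.285 and 0.282 in the blank libraries and 0.335, 0.301 and 0.256 in the agonist libraries. The antagonist libraries were below all others, as for ID4 itself, whose values this ratio reuses, so this is not separate evidence. How many other gene pairs part the groups in this way was not counted. Agonist replicate 3, at 0.256, stood closer to the other agonist libraries than it did for ID4 alone. Its BMP4 level was also the lowest, at 25.9 TPM. The log2 ratio was lower by 0.89 with the antagonist than in blank cells (-2.61 ± 0.07 against -1.72 ± 0.17, SD, n = 3 each; two-sided exact permutation p = 0.1). It was higher by 0.85 with the agonist than with the antagonist (exact permutation p = 0.1). With 3 libraries against 3, 0.1 is the smallest p this test can give, and after adjustment over the 9 ratio comparisons it became 0.225.

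The ID4 to FST ratio was also lowest with the antagonist, at 0.103 to 0.116 in the antagonist, 0.157 to 0.271 in the agonist and 0.192 to 0.228 in the blank libraries. Agonist replicate 3, at 0.157, lay below every blank library, where agonist replicates 1 and 2 had 0.271 and 0.241. For the ID4 to FST ratio,  too, the ID4 values are reused. The log2 difference of this ratio was 0.99 between agonist and antagonist and -0.92 between antagonist and blank (exact permutation p = 0.1 each, 0.225 adjusted). Neither ratio with ID4 separated agonist from blank, with log2 differences of -0.04 and 0.07 (exact permutation p = 0.9 each). The BMP4 to FST ratio, the ligand against the secreted inhibitor, was 0.584 to 0.808 over all 9 libraries. Its groups overlapped in each comparison (exact permutation p = 0.3 to 1).

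**Figure D3:**
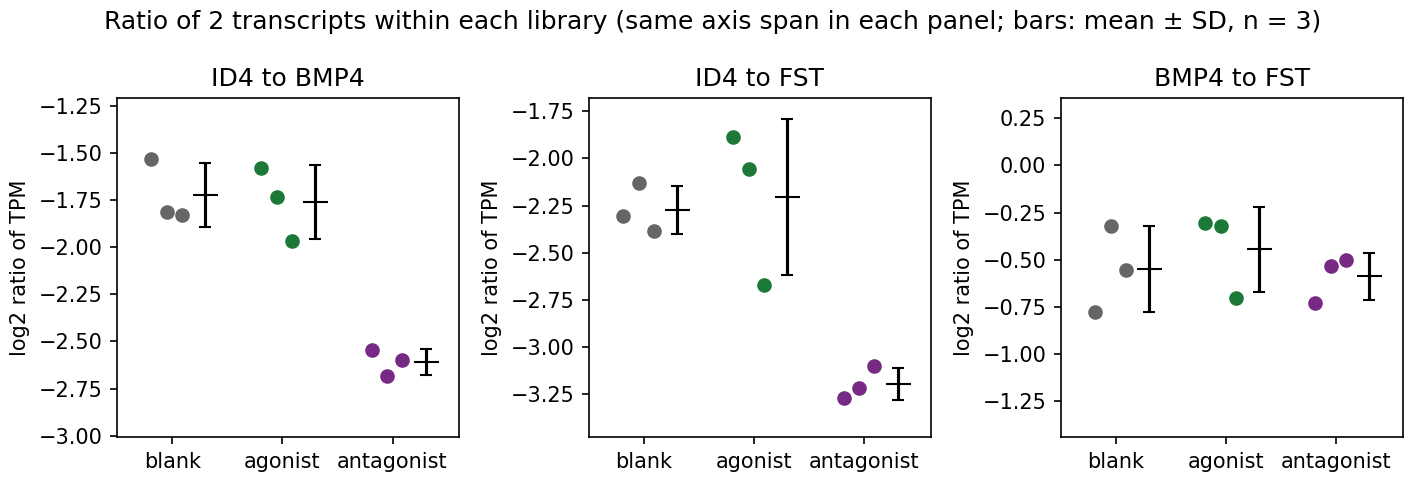
Log2 ratio of the TPM of 2 genes within each library (vertical axes, the same span in each panel), by group, with the mean and SD of each group. Both ratios with ID4 are lowest in the 3 antagonist libraries, at -2.68 to -2.54 for ID4 to BMP4, and the BMP4 to FST ratios of the groups overlap.

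Of 172 genes in the lists of ligands, secreted inhibitors, receptors, SMADs with their regulators, helix-loop-helix factors and responsive genes, 13 were in the table, and 9 of these were tested, FST, BMP4 and ID4 included. Activin subunits, BMP receptors, SMADs and the other ID genes were not analysed here. Among the 6 other tested genes, 2 were lower with the agonist than with the antagonist and 0 higher, where 23.9% and 1.68% of all tested genes were, with a median log2 fold change of -0.35 against -0.21 for all tested genes. Of these 6, DLX5, at 0.301 to 0.489 TPM in the agonist libraries, passed the filter of 1 TPM through the other groups alone. ENG, at 0.619 to 1.13 TPM there, passed it mainly through them. The filter favours a lower agonist value in such genes, so this median cannot show a lean of the set. For antagonist against blank 1 was higher and 0 lower, where 10.2% and 0.841% of all tested genes were, with a median of 0.05 against 0.12. For agonist against blank none of the 6 passed in limma, with a median of -0.15 against -0.08.

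SKI, a nuclear repressor that binds SMADs, was at 3.67 ± 0.27, 4.94 ± 0.51 and 4.16 ± 0.43 TPM for agonist, antagonist and blank (SD, n = 3 each). Agonist-treated cells had less of it than antagonist-treated cells, by -0.35 ± 0.10 on the log2 scale (SE, limma, adjusted p = 0.0333). This call was lost after upper quartile scaling (-0.17), median of ratios scaling (-0.12) and quantile normalization (-0.066). It was lost after scaling to a common sum (-0.34, limma, adjusted p = 0.0536) and with the flow cell code in the model (limma, adjusted p = 0.0711). It was also lost without any one of the agonist libraries or antagonist replicates 1 and 3, at -0.39 to -0.28. FN1, which encodes fibronectin and responds to TGF-beta signals in many cells, was at 1.27 ± 0.26, 2.23 ± 0.17 and 1.20 ± 0.44 TPM for agonist, antagonist and blank. It was lower with the agonist than with the antagonist (log2 fold change -0.51, limma, adjusted p = 0.0325) and higher with the antagonist than in blank cells (0.57, limma, adjusted p = 0.0435). Each of the FN1 calls held in 6 of 12 other ways of analysis, and neither held with the flow cell code in the model (limma, adjusted p = 0.0738 and 0.135). The first was lost without agonist replicate 1 or 3 or any antagonist library, at -0.53 to -0.42, and the second without agonist replicate 3, any antagonist library or blank replicate 2 or 3, at 0.42 to 0.60. ENG, a TGF-beta co-receptor that is also an endothelial marker, was at 0.619 to 1.13 TPM in the agonist, 1.07 to 1.63 TPM in the antagonist and 1.36 to 1.59 TPM in the blank libraries. It passed in no comparison as reported. With library weights it was lower with the agonist than with the antagonist (log2 fold change -0.39, limma, adjusted p = 0.0257), and without agonist replicate 2 it was lower than with the antagonist (-0.49, limma, adjusted p = 0.0194) and than in blank cells (-0.60, limma, adjusted p = 0.0210).

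The other 3 tested genes passed in no comparison. TGIF1, a homeodomain repressor that binds SMADs, was at group means of 23.6 to 26.5 TPM. SPARC, a secreted matrix protein, was at 580 to 626 TPM. DLX5, a homeodomain factor that responds to BMP signals in bone cells, was at 0.399 to 1.03 TPM. BMP10, TCF21, TWIST2 and TNFAIP6 were in the table at levels too low to test, and TWIST2 was listed at 0 in all 9 libraries.

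The pattern over the 9 libraries was compared between genes as the root mean square difference of profiles that were each set to a mean of 0 and an SD of 1, among 443 genes with a mean of 5 TPM or more. Smaller values mean more alike shapes. For ID4 the nearest were ARF4, a GTPase of the Golgi, at 0.368, DECR2, an enzyme of peroxisomal fatty acid breakdown, at 0.374, and CITED4, a transcriptional co-activator, at 0.447, where the median of all genes was 1.42. ARF4 was at 34.6 TPM with the antagonist and at 41.2 and 42.5 TPM with the agonist and in blank cells. Relative to its level, its range between groups was thus narrower than that of ID4. For FST the nearest were the centromere protein gene CENPH at 0.215, ING1, a chromatin reader, at 0.307 and ZYX, a focal adhesion protein, at 0.314, with a median of 0.870. For BMP4 they were MAK16 at 0.449, SERPINF1 at 0.476 and AK1 at 0.503, with a median of 1.15. Between the 3 genes themselves the difference was 1.04 for FST and BMP4, 1.18 for BMP4 and ID4 and 1.54 for FST and ID4. Each of the first 2 values lay between the medians given for its 2 genes, and the value for FST and ID4 lay above both. All profiles come from the same 9 libraries, so they share whatever sets those libraries apart.

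In the gene order of the Taihu goose assembly, 4 of 18 protein-coding genes within 3 places of FST, BMP4 or ID4 were in the table. NDUFS4, the next protein-coding gene to FST, was at group means of 0.569 to 0.702 TPM, ARL15 beyond it at 0.231 to 0.296 TPM, and HSPB3 was listed at 0. KDM1B, 3 places from ID4, was at 0.740, 1.08 and 0.811 TPM with the agonist, the antagonist and in blank cells. Over the 3 groups KDM1B did not pass (limma moderated F = 3.82, adjusted p = 0.138).

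**Figure D4:**
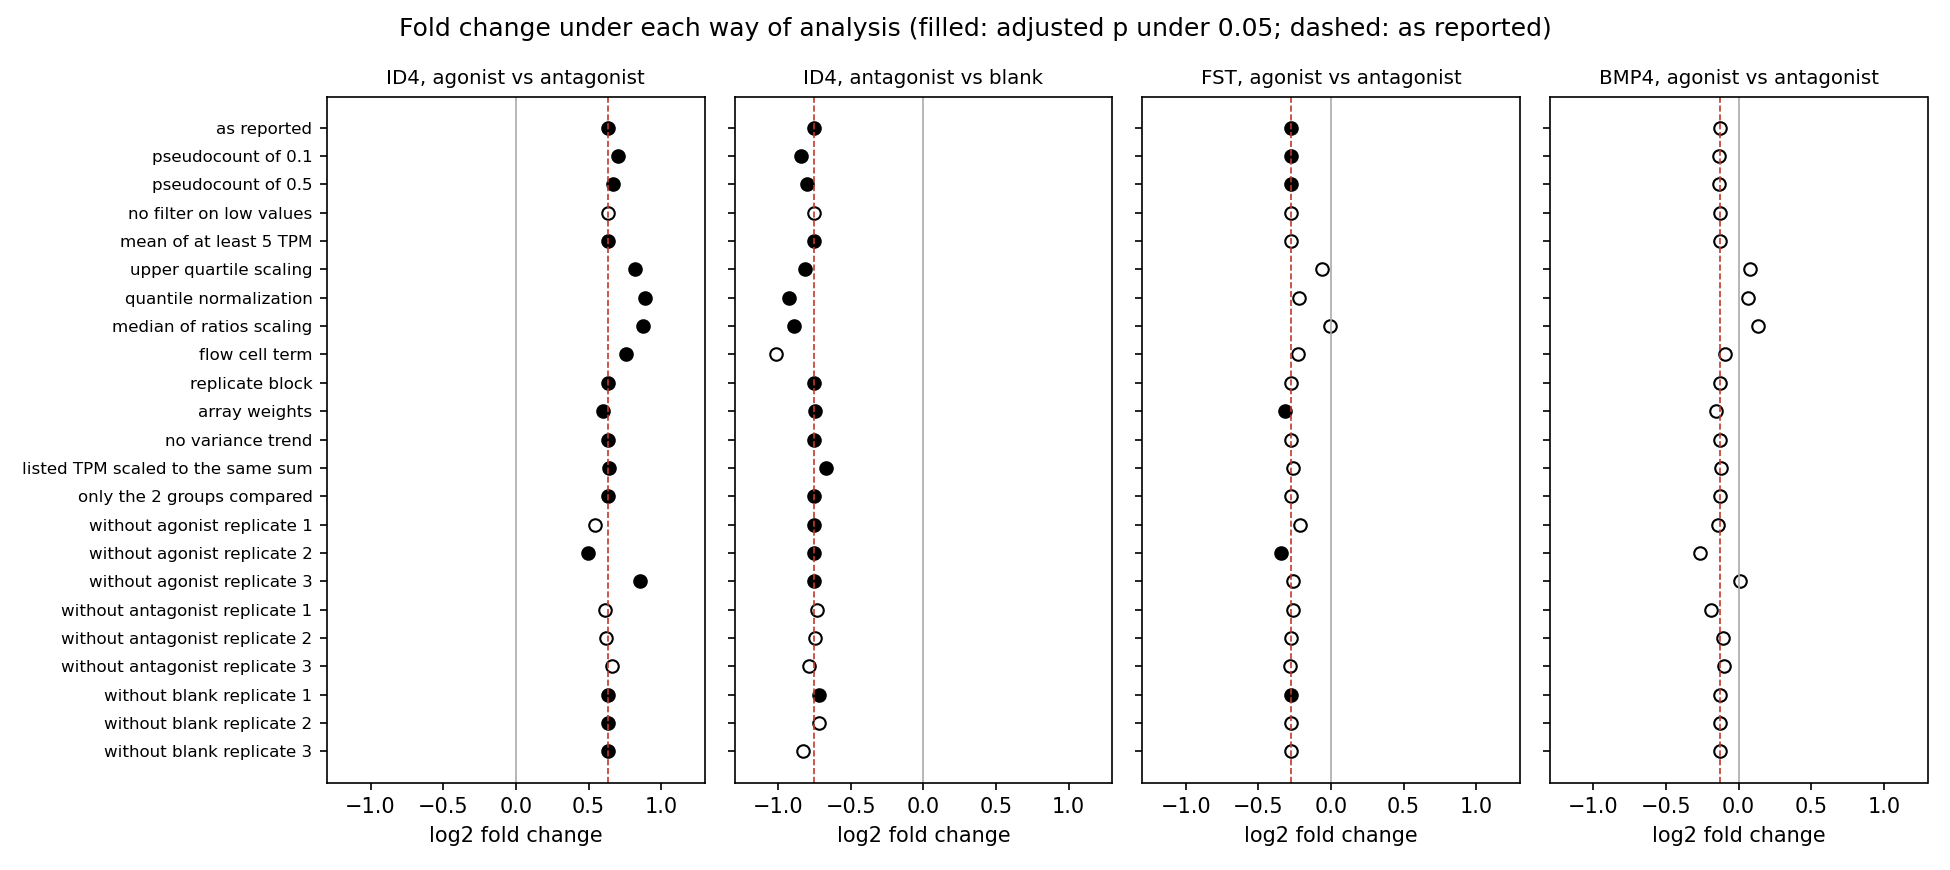
Log2 fold change (horizontal axes) of ID4, FST and BMP4 under each way of analysis and without each library in turn, filled where the adjusted p was under 0.05, with the value as reported as a dashed line. ID4 keeps its sign throughout, from 0.50 to 0.89 for agonist against antagonist and from -1.02 to -0.67 for antagonist against blank, while for agonist against antagonist, the comparison drawn for the other two, FST lies between -0.35 and -0.0038 and BMP4 on both sides of 0.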

How the data were processed

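The deposited file gives TPM for 1371 named genes, with a column for each of the 9 libraries, and every column was used. StringTie 1.2.2, TopHat2 2.1.0, Cuffdiff, Cufflinks 2.2.1 and CASAVA 1.8.2 appear in the submitters' processing notes, which assign them no step. Genome build, annotation and strand setting: not given in the sources used here. TPM keeps no depth, so no counting interval is given. All 3 gene names match a RefSeq symbol of the Taihu goose assembly, which was used for gene order only.

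Values were taken as log2(TPM + 1), and the 832 genes that reached 1 TPM in 3 or more libraries were tested (R 4.3.3, limma 3.58.1), by a linear model of group with a variance trend. Within a comparison, p-values were adjusted over all tested genes (Benjamini-Hochberg, threshold 0.05). The script was tested on simulated data. Within-library ratios were compared with exact permutation tests.

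The genes, lists and tests were chosen with earlier results of these data known. From each pathway list, called members were named, or else the 2 tested members with the highest mean, and the 3 genes nearest in pattern to each of FST, BMP4 and ID4. TGIF1, SPARC, DLX5, the untested list members and the neighbouring genes fall outside that rule and are named so that each list is accounted for.

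The alternatives were a pseudocount of 0.1 or 0.5, testing every gene or only those averaging 5 TPM, 3 scalings, the flow cell code or the replicate number as a term, library weights, no variance trend, the 2 groups compared alone and each library left out. Scaling to a common sum was added after seeing the data.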

Additional observations from a re-analysis of the deposited data

How the results depend on the processing

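For ID4, the sign held in all 13 other ways of analysis and all 9 fits without 1 library in both comparisons with the antagonist. The calls for agonist against antagonist and antagonist against blank held in 12 and 11 of the 13. They held in only 5 and 4 of the 9 fits without 1 library. With every gene tested, whatever its level, ID4 (log2 fold changes 0.63 and -0.76, F = 10.1) and FST (-0.27) no longer passed, and 14 genes passed for antagonist against blank, where 92 passed as reported. With the flow cell code as a term, ID4 against blank was at -1.02 and its F at 22.5, neither passing, FST for agonist against antagonist at -0.23 and BMP4 for antagonist against blank at -0.054, and 132 and 0 genes passed for agonist against antagonist and antagonist against blank in place of 213 and 92 (limma; for the latter, genes with an unadjusted p under 0.05 went from 252 to 199). The causes were not tested.

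Scaling mattered for FST and BMP4. For agonist against antagonist, the split of 14 higher and 199 lower genes was 35 and 66 (101 in all) after upper quartile scaling, 25 and 27 (52 in all) once quantile normalized and 52 and 56 (108 in all) by median of ratios; the median of all genes moved from -0.21 to -0.043, 0.015 and 0.0049. FST lost its call there, at -0.064, -0.22 and -0.0038, and BMP4 changed sign, to 0.076, 0.066 and 0.14. For antagonist against blank, the split of 85 and 7 became 62 and 14, 30 and 11 (41) and 42 and 24, BMP4 changed sign to -0.035, -0.017 and -0.12, FST to -0.086 with median of ratios scaling and SKI to -0.0034 with quantile normalization. For agonist against blank, BMP4 changed sign to 0.041, 0.049 and 0.015, and ID4 to 0.0079 with upper quartile scaling. With a common sum, FST for agonist against antagonist was at -0.26 without passing, BMP4 for agonist against blank at 0.0060, and 155 genes passed for antagonist against blank.

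FST for agonist against antagonist also lost its call, at -0.27, with a mean of at least 5 TPM, with no variance trend and with the 2 groups alone. For antagonist against blank, 42 and 61 genes passed with pseudocounts of 0.1 and 0.5 and 26 with a mean of at least 5 TPM, where 86 passed for agonist against antagonist. With library weights 369, 348 and 12 genes passed in the 3 comparisons, the F of FST was 9.36, now passing, and BMP4 for antagonist against blank was at -0.046.

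With the replicate number as a block, FST for agonist against antagonist kept its fold change of -0.27 but not its call (limma, adjusted p = 0.0692), and 27 genes passed for antagonist against blank. Correlations of same-numbered libraries' deviations from their group means ran from -0.12 to 0.22. Those of differently numbered libraries ran from -0.25 to 0.19, and not every library correlated best with its own number. With 3 libraries per group, such values cannot show whether the numbers pair the libraries.

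Without 1 library, 13 to 295 genes passed for agonist against antagonist (15, 295 and 121 leaving out agonist replicate 1, 2 or 3; 80, 137 and 13 leaving out antagonist replicate 1, 2 or 3), 2 to 213 for antagonist against blank (50, 94 and 57 in that order for the agonist, 4, 8 and 2 for the antagonist, 213, 2 and 2 for the blank libraries) and 0 to 67 for agonist against blank (67 without agonist replicate 2, 1 without antagonist replicate 3). Over these fits, for agonist against antagonist, FST ranged from -0.35 to -0.22, ID4 from 0.50 to 0.86 and BMP4 from -0.26 to 0.0093. For antagonist against blank, ID4 ranged from -0.83 to -0.72 and BMP4 from -0.026 to 0.12. For agonist against blank, BMP4 ranged from -0.23 to 0.041, ID4 from -0.26 to 0.10 and FN1 from -0.091 to 0.20. The F of FST ranged from 2.53 to 10.3 and that of ID4 from 7.84 to 43.6. The ratio comparisons of ID4 with the antagonist kept their sign throughout, with 0.76 and -0.79 in place of 0.85 and -0.89 for ID4 to BMP4 once a pseudocount of 1 was added. Without 1 library, 4 ratio comparisons changed sign: ID4 to BMP4 (-0.13 to 0.067), ID4 to FST (-0.090 to 0.30, the latter without agonist replicate 3) and BMP4 to FST (-0.0058 to 0.24) for agonist against blank, and BMP4 to FST for antagonist against blank (-0.15 to 0.079).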
